A study of Mus musculus with 34 samples.

Results

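The genes examined here encode the antioxidant transcription factor Nrf2, its inhibitor and a set of its best known targets. They are *Nfe2l2* (the gene of Nrf2), *Keap1*, *Nqo1*, *Hmox1*, *Gclc*, *Gclm*, *Slc7a11*, *Txnrd1*, *Srxn1* and *Gpx2*, which were taken by name and make up 10 of the 23509 genes counted in each mouse. The choice was made with earlier results of these data known. Polyadenylated RNA of whole kidney was sequenced from 34 mice of the C57BL6 strain, all killed on postnatal day 28 (P28). The 12 UNT mice were untreated and non-transgenic, with both copies of *Pkd2* intact. The 11 PBS mice and the 11 RGLS4326 mice were *Pkd2*-KO, a genotype that the labels spell "Pdk2KO". Both of these groups were injected under the skin on P10, P11, P12 and P19, the first with saline and the second with RGLS4326 at 20 mg per kg. RGLS4326 is a short, chemically modified oligonucleotide whose bases pair with the seed of the microRNA miR-17. In this polycystic kidney disease model Cre is driven by the *Pkhd1* promoter, which is active in tubule epithelium, so the other cells of the kidney keep the floxed *Pkd2* gene. UNT mice were not injected, so genotype and injection cannot be told apart in the comparison of PBS with UNT.

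Nrf2 is made continuously and, in unstressed cells, is held by Keap1 and handed to a Cul3 ubiquitin ligase for destruction. Oxidants and electrophiles modify cysteines of Keap1, Nrf2 escapes, pairs with a small Maf protein and binds antioxidant response elements near genes for glutathione synthesis, quinone reduction, haem breakdown and the thioredoxin system. Because most of this control acts on the Nrf2 protein, the mRNA of *Nfe2l2* does not measure the activity of the factor. In kidney the tubules, the proximal tubule above all, carry much of the glutathione metabolism.

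RGLS4326 was designed against the seed of miR-17, bases 2 to 8 of the mature microRNA, so the seed is shown here in capitals together with its matches in the genes examined. In RefSeq (GRCm38.p6) the mature miR-17-5p lies at chr14:115043684-115043706 on the plus strand, and miR-20a-5p, miR-20b-5p, miR-93-5p, miR-106a-5p and miR-106b-5p carry the same seed.
mmu-miR-17-5p: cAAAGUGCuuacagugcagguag
The longest annotated 3′UTR of each of the 10 genes was searched for the letters GCACTTT (pairing with bases 2 to 8) and CACTTTA (pairing with bases 2 to 7, followed by A). Matches were found in 2 of the 10 genes, against 21.2% of the 14190 tested genes with an annotated 3′UTR. *Nfe2l2* held 1 match at chr2:75675873-75675879 and *Slc7a11* held 3, at chr3:50371030-50371036, chr3:50367066-50367072 and chr3:50365747-50365753, all on the minus strand. They are printed in that order along the transcript, with the match in capitals.
Nfe2l2: tgcagaaaCACTTTAtaagtaac
Slc7a11 upstream: catttcttCACTTTAgttataat
Slc7a11 middle: ggttctgaGCACTTTgtgtgatg
Slc7a11 last: ggtggaatCACTTTAgcccagtg
A match is only a run of letters and was not tested as a binding site. Neither gene passed the test between RGLS4326 and PBS, as described below.

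The core letters of the antioxidant response element, TGACNNNGC, were searched on both strands of the RefSeq promoters (GRCm38.p6, from 250 bases before to 50 bases after each start). Promoters of 8 of the 10 genes were in that table, and *Hmox1* and *Gclc* were not among them. The letters occurred once each in 4 of the 8 genes, *Nfe2l2*, *Gclm*, *Txnrd1* (in 1 of its 3 promoters) and *Srxn1*, against 14% of the 27025 genes and 12.4% of the 32851 promoters in the table. They are shown because these windows hold the motif that names the response; capitals mark the match, and none of them overlapped the related AP-1 letters TGANTCA.
Nfe2l2 (chr2:75704895-75704903, minus strand): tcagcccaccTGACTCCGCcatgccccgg
Gclm (chr3:122245423-122245431, minus strand): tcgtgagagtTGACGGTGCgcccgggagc
Txnrd1 (chr10:82859114-82859122, minus strand): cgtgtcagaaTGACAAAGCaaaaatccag
Srxn1 (chr2:152105552-152105560, minus strand): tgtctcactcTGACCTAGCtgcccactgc
Well known elements of such genes often lie further from the start, and a gene with no match in this window is not thereby without one. The 4 genes with a match did not share a direction in the diseased kidneys, as the values below show.

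Reads in genes ranged from 17603122 to 54981992 per kidney, and levels are given as CPM, each count taken relative to its TMM-scaled library size. The deleted gene, *Pkd2*, lay between 220 and 338 CPM in UNT, between 98.0 and 215 CPM in PBS and between 170 and 237 CPM in RGLS4326 kidneys, with no overlap between PBS and UNT. Levels of cell type markers differed between the groups. Of all tested genes, 82.1% were called (adjusted p under 0.05) between PBS and UNT and 33.8% between RGLS4326 and PBS. All 7 proximal tubule markers were lower in PBS than in UNT (log2 fold changes -3.64 to -2.13), and their summed level was 10434 to 14002 CPM in UNT, 738 to 2885 CPM in PBS and 1895 to 3277 CPM in RGLS4326. All 6 macrophage markers were higher (1.84 to 4.50, summed level 90.6 to 153, 557 to 1407 and 520 to 991 CPM), as were 5 of 5 collecting duct, 3 of 3 T cell, 3 of 3 fibroblast and 4 of 4 injured tubule markers, while 3 of 3 podocyte and 2 of 3 thick ascending limb markers were lower. Of 3 endothelial markers, 2 were higher and 1 lower, and 1 of 5 erythroid markers was abundant enough to test and was lower. Between RGLS4326 and PBS, 5 of 7 proximal tubule, 3 of 3 podocyte, 2 of 3 thick ascending limb and 2 of 3 endothelial markers were higher, 1 thick ascending limb marker, 3 of 5 collecting duct, 3 of 6 macrophage, 3 of 3 T cell and 1 of 4 injured tubule markers were lower, and no fibroblast or erythroid marker passed. In whole kidney, fewer cells of a type and less RNA per cell cannot be told apart, and the part of these shifts in the results that follow was not tested. The percentage of reads outside any gene also moved with the groups, at 9.84 to 11.3% in UNT, 5.18 to 9.0% in PBS and 4.94 to 12.0% in RGLS4326, and the percentage without a unique alignment was 22.8 to 25.7%, 14.8 to 19.4% and 14.8 to 19.1%.

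The comparison of PBS with UNT asks how the antioxidant genes stand in the diseased kidney. They did not move as a block. *Nfe2l2*, *Keap1*, *Hmox1*, *Slc7a11* and *Srxn1* rose, *Nqo1*, *Gclc* and *Gclm* fell to about the same extent, and *Txnrd1* did not pass the test. Of the 9 genes abundant enough to test, 8 were called at an adjusted p under 0.05 (edgeR quasi-likelihood test, Benjamini-Hochberg over 15644 genes), 5 of them higher and 3 lower. Of all tested genes 82.1% were called in this comparison, 43.1% higher and 39.0% lower, so that 8 of 9 is close to the background. The groups did not overlap for 4 of the 9 genes, against 42.5% of all genes. The median log2 fold change of the 9 genes was 0.25, beside 0.04 over all genes.

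**Figure D1:**
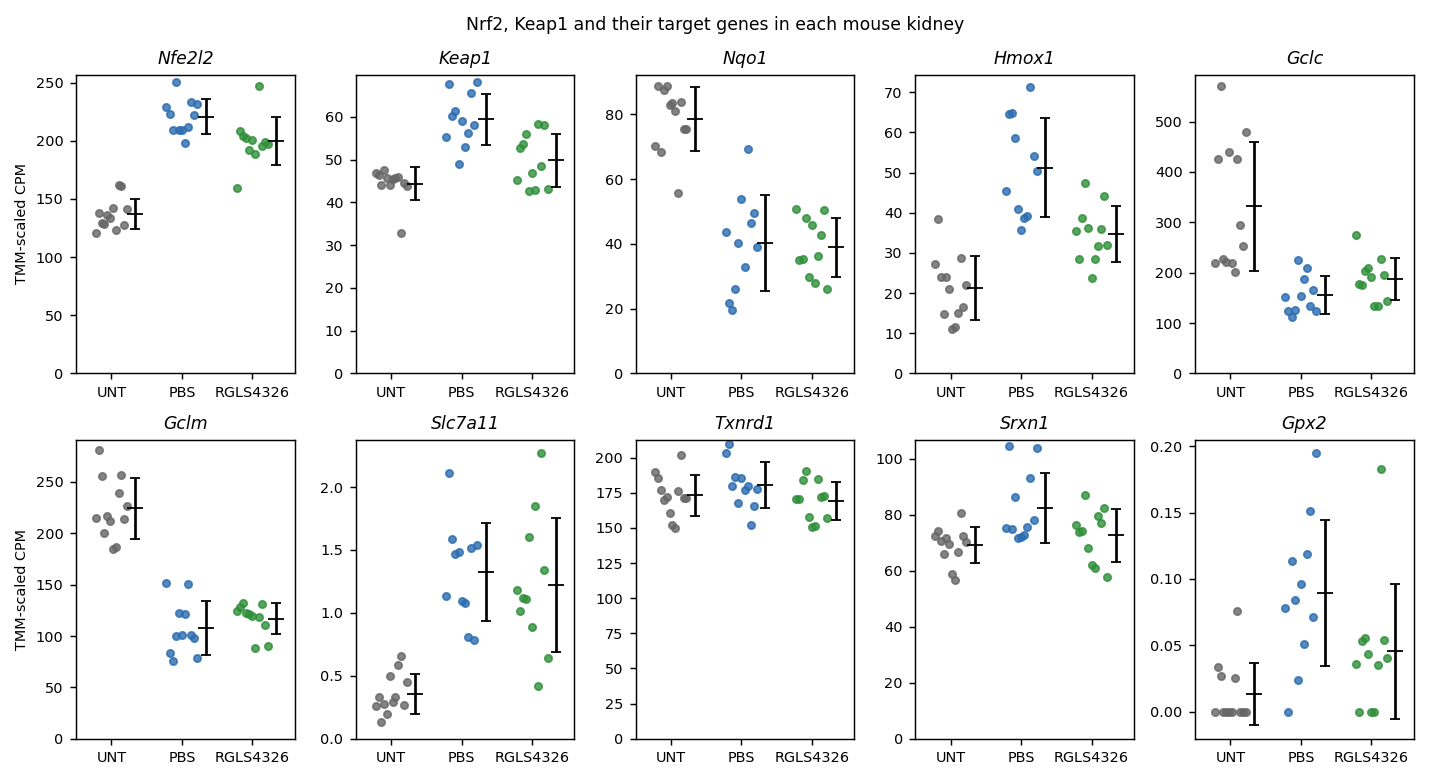
Level of each of the 10 genes (TMM-scaled CPM, vertical axes) in each of the 34 kidneys, with 1 point per mouse and the group mean ± SD in black. PBS and UNT mice are fully apart for *Nfe2l2*, *Keap1*, *Gclm* and *Slc7a11*, and RGLS4326 mice overlap PBS mice in every panel.

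Among the regulators, *Nfe2l2* (chr2:75675513-75704641, minus strand) ran from 121 through a median of 135 to 162 CPM in UNT kidneys. In PBS kidneys its lowest, median and highest levels were 198, 222 and 250 CPM, and in RGLS4326 kidneys 159, 199 and 247 CPM. Every PBS mouse stood above every UNT mouse, and the treated mice sat between them, nearer to PBS, with 10 of 11 above all UNT mice. Transcripts of the factor were thus 1.61-fold higher in PBS than in UNT (log2 fold change 0.69, SE 0.06, adjusted p 2.17e-13).

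*Keap1* (chr9:21229730-21239361, minus strand), whose product marks Nrf2 for destruction, had levels of 32.9, 45.6 and 47.7 CPM (lowest, median, highest) in UNT. PBS kidneys held 49.1, 59.0 and 68.2 CPM, and RGLS4326 kidneys 42.7, 48.5 and 58.4 CPM. All PBS mice were again above all UNT mice, whereas treated mice overlapped both groups. The inhibitor therefore rose together with the factor, 1.34-fold (log2 fold change 0.42, SE 0.06, adjusted p 3.11e-07). This call was lost once the percentage of reads outside genes (0.16, adjusted p 0.0565) or without a unique alignment (0.08, adjusted p 0.697) entered the fit. An antisense gene, Gm16754, overlaps exons of *Keap1*, and the strand setting of the counting is not given in the sources used here, so its count is uncertain.

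The quinone and haem enzymes parted ways. *Nqo1* (chr8:107388225-107403206, minus strand), which reduces quinones by a 2-electron step and is often read as the reporter of Nrf2 activity, had levels of 55.8, 81.9 and 88.8 CPM in UNT. Its lowest, median and highest levels were 19.7, 40.4 and 69.2 CPM in PBS and 26.1, 36.4 and 50.8 CPM in RGLS4326 kidneys. All but 1 PBS mouse lay below the whole UNT group, and the spread among PBS mice was wide, with a coefficient of variation of 36.6% against 12.6% in UNT. *Nqo1* was 1.95-fold lower in PBS (log2 fold change -0.96, SE 0.15, adjusted p 5.98e-07). In library sets (runs of library numbers) 1, 2 and 3 alone the value was -1.51, -1.16 and -0.51. After adjusting for the percentage of reads without a unique alignment it was -1.71, and the gene was called in each of these fits.

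*Hmox1* (chr8:75093621-75100589, plus strand) encodes heme oxygenase 1, which opens the haem ring and also answers to haem itself through Bach1. It measured 11.1, 21.5 and 38.6 CPM in UNT, 35.8, 50.3 and 71.4 CPM in PBS and 23.8, 35.5 and 47.4 CPM in RGLS4326 kidneys. The PBS group stood above UNT with a single mouse inside the UNT range, and 3 of 11 treated mice lay above all UNT mice. The rise from UNT to PBS was 2.41-fold (log2 fold change 1.27, SE 0.16, adjusted p 9.37e-09). Macrophages, which clear red cells, express this gene strongly. Their markers rose in the same mice, and their part in the rise was not tested.

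The glutathione genes were split in the same manner. *Gclc* (chr9:77754535-77794485, plus strand), the catalytic subunit of the rate-limiting enzyme of glutathione synthesis, ran from 201 over 274 to 570 CPM in UNT. PBS kidneys held 112, 152 and 225 CPM (lowest, median, highest), and RGLS4326 kidneys 133, 192 and 274 CPM. UNT mice formed a low and a high cluster, and 9 of 11 PBS mice lay below all of them. The catalytic subunit was 2.13-fold lower in PBS than in UNT (log2 fold change -1.09, SE 0.17, adjusted p 4.13e-07).

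*Gclm* (chr3:122245557-122270732, plus strand), the modifier subunit that raises the affinity of the enzyme for glutamate, had 184, 216 and 281 CPM in UNT. It measured 75.9, 101 and 152 CPM in PBS and 88.8, 121 and 132 CPM in RGLS4326 kidneys. No PBS and no treated mouse reached the lowest UNT mouse. The modifier subunit fell alongside the catalytic one, 2.08-fold (log2 fold change -1.06, SE 0.10, adjusted p 1.06e-11). The pseudogene Gm6061 on the same strand and Gm17494 on the other overlap its exons, which makes the count uncertain.

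*Slc7a11* (chr3:49892526-50443614, minus strand), the cystine importer that feeds glutathione synthesis, moved the opposite way, from a very low level. Its levels were 0.13, 0.31 and 0.66 CPM in UNT (5 to 29 reads per kidney), 0.78, 1.46 and 2.11 CPM in PBS (29 to 79 reads) and 0.42, 1.12 and 2.27 CPM in RGLS4326 (12 to 63 reads). Each PBS kidney exceeded each UNT kidney. The rise was 3.66-fold (log2 fold change 1.87, SE 0.24, adjusted p 7.95e-09), on counts small enough that sampling adds to the error. Its size varied with the fit, at 2.66, 1.91 and 1.20 in library sets 1, 2 and 3 alone. After adjusting for the percentage of reads without a unique alignment it was 2.64, and the gene was called in each of these fits.

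In the thioredoxin and peroxide group *Txnrd1* (chr10:82833951-82897712, plus strand), the cytosolic thioredoxin reductase, had 150, 172 and 202 CPM in UNT, 152, 180 and 210 CPM in PBS and 151, 170 and 190 CPM in RGLS4326. The 3 ranges nearly coincided. Its log2 fold change between PBS and UNT was 0.06 (SE 0.05, adjusted p 0.316).

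*Srxn1* (chr2:152105516-152111376, plus strand), which repairs overoxidized peroxiredoxins, measured 56.7, 70.5 and 80.6 CPM in UNT, 71.5, 75.5 and 104 CPM in PBS and 57.6, 74.1 and 86.9 CPM in RGLS4326. All PBS mice were above the UNT mean, but 7 of 11 still lay within the UNT range. The rise was the smallest of those called, 1.19-fold (log2 fold change 0.25, SE 0.07, adjusted p 0.00226). It was not called in any of the 3 library sets (runs of library numbers) alone, at 0.23, 0.20 and 0.27 (adjusted p 0.0937, 0.0603 and 0.0994). Adjusting for the percentage of reads outside genes turned the value to -0.05 (adjusted p 0.633), and adjusting for that without a unique alignment gave 0.12 (adjusted p 0.605).

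*Gpx2* (chr12:76792333-76795554, minus strand), the gastrointestinal glutathione peroxidase, was close to absent. It gave 6 reads over the 12 UNT kidneys, 38 over the 11 PBS kidneys and 14 over the 11 RGLS4326 kidneys, and none at all in 8, 1 and 3 of them. The filter on low counts removed it, so it has no test in the main comparison. In a fit without that filter it was 2.40 log2 units higher in PBS than in UNT (SE 0.55, adjusted p 2.02e-04), and RGLS4326 differed from PBS by -0.97 (SE 0.49, adjusted p 0.139), values that rest on a handful of reads per mouse. Its abundant relatives behaved otherwise. *Gpx1* (log2 fold change -0.60, adjusted p 2.70e-06), the secreted *Gpx3* of the proximal tubule (-1.42, adjusted p 6.52e-14) and the lipid peroxidase *Gpx4* (-0.53, adjusted p 5.70e-06) all fell in PBS kidneys.

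Between genes, levels are compared per kilobase of annotated exon. In UNT the order of mean levels was *Gclc* at 88.0, *Nqo1* at 50.5, *Nfe2l2* at 36.1, *Gclm* at 35.6, *Srxn1* at 24.5, *Txnrd1* at 24.4, *Hmox1* at 12.1, *Keap1* at 9.47, *Slc7a11* at 0.026 and *Gpx2* at 0.0042 CPM per kb. Neighbours in this order overlapped between mice, except that every *Gclm* level exceeded every *Srxn1* level and that *Keap1* and *Slc7a11* were far apart. In PBS kidneys *Nfe2l2* came first at 58.1 CPM per kb, with *Gclc* second at 41.4, while *Hmox1* at 29.3 and *Srxn1* at 29.2 stood above *Nqo1* at 25.9, *Txnrd1* at 25.5 and *Gclm* at 17.1 CPM per kb. RGLS4326 kidneys kept *Nfe2l2* (52.5) and *Gclc* (49.8 CPM per kb) at the top, and *Hmox1* (19.9 CPM per kb) stood below *Srxn1* (25.7), *Nqo1* (25.1) and *Txnrd1* (23.9). In both the PBS and the RGLS4326 group the ranges of *Hmox1*, *Srxn1*, *Nqo1* and *Txnrd1* overlapped, as did those of *Nfe2l2* and *Gclc*. These lengths join all annotated exons of a gene, so genes with many exon variants appear lower than any single transcript would.

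The comparison of RGLS4326 with PBS asks whether treatment moved these genes in the diseased kidney. PBS mice were injected with saline and not with a control oligonucleotide, so inhibition of miR-17 and exposure to an oligonucleotide cannot be told apart. The Nrf2 inhibitor *Keap1* and the haem enzyme *Hmox1* fell. No gene of the set rose at the threshold, and *Nqo1*, the glutathione genes and *Slc7a11* did not pass. Calls were made for 2 of the 9 tested genes, both lower, where 33.8% of all tested genes were called, 15.3% higher and 18.5% lower. The share of the antioxidant genes was thus not above the background, and their median log2 fold change was -0.11, beside 0.00 over all genes. All 9 genes overlapped between the groups, as did nearly all others, since 0.0639% of tested genes did not overlap.

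**Figure D2:**
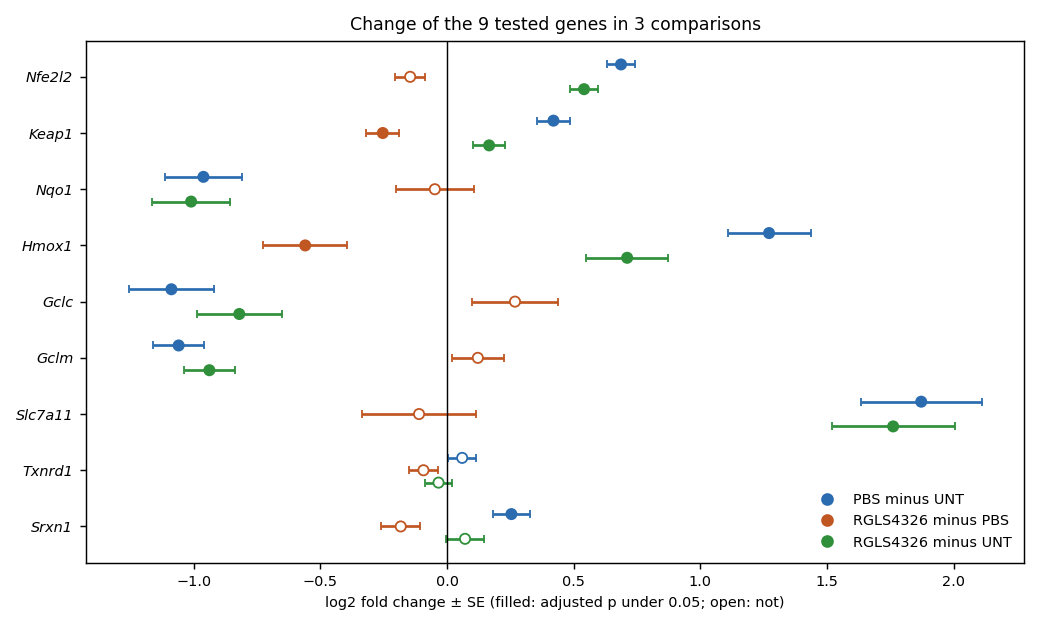
Log2 fold change ± SE (horizontal axis) of the 9 tested genes in the 3 comparisons, with filled points for an adjusted p under 0.05 and open points otherwise. In the orange comparison of RGLS4326 with PBS, *Keap1* at -0.25 and *Hmox1* at -0.56 are the filled points, while *Nqo1*, *Gclc* and *Gclm* remain about 1 log2 unit below UNT in the green comparison.

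For *Keap1* all 11 treated mice were below the PBS mean and 6 were below every PBS mouse. The decrease was 1.19-fold (log2 fold change -0.25, SE 0.07, adjusted p 0.00648). The same held for *Hmox1*, with 11 of 11 treated mice below the PBS mean and 6 below the whole PBS group. Its decrease was 1.47-fold (log2 fold change -0.56, SE 0.17, adjusted p 0.0125). Neither call held after adjusting for the percentage of reads outside genes, where *Keap1* was at -0.13 (adjusted p 0.218) and *Hmox1* at -0.40 (adjusted p 0.223), and 0.569% of all genes were called. Of 6 macrophage markers 3 were also lower in treated kidneys, and the part of these cells in the *Hmox1* value was not tested.

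*Nfe2l2* missed the threshold narrowly (-0.15 on the log2 scale, SE 0.06, adjusted p 0.0501), with 10 of 11 treated mice below the PBS mean. It was under the threshold in 5 alternative fits, namely the DESeq2 Wald test (adjusted p 0.0322), DESeq2 size factors (0.0446), and covariates for library set (0.0371), reads without a unique alignment (0.0296) and *Ddx3y*, a gene of the Y chromosome (0.0475). It also passed in 9 of the 34 fits that left out 1 mouse, but after adjusting for the percentage of reads outside genes it was at -0.09 (adjusted p 0.404). *Srxn1* was similar, at -0.18 (SE 0.08, adjusted p 0.0590), with 10 of 11 treated mice below the PBS mean. It passed in 6 of those 34 fits, and the same adjustment brought it to -0.04 (adjusted p 0.774). *Srxn1* was called with library set as a covariate (-0.20, adjusted p 0.0209), with the DESeq2 Wald test (adjusted p 0.0491) and after adjusting for reads without a unique alignment (adjusted p 0.0479). It was also called between the mice with *Ddx3y* (-0.29, adjusted p 0.0409), a split chosen after seeing the data. *Txnrd1* was at -0.09 (SE 0.06, adjusted p 0.187), and passed in library set 2 alone (-0.21, adjusted p 0.0468).

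None of the 3 genes that had fallen in disease passed after treatment. *Gclc* was at 0.27 (SE 0.17, adjusted p 0.214), with 8 of 11 treated mice above the PBS mean, and *Gclm* was at 0.12 (SE 0.10, adjusted p 0.358), with 9 of 11 above it. *Nqo1* was at -0.05 (SE 0.16, adjusted p 0.821), with 5 treated mice above the PBS mean and 6 below. *Slc7a11*, which had risen in disease, was at -0.11 (SE 0.22, adjusted p 0.715).

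The table names fall into 3 runs of library numbers, called library sets here, each with all 3 groups and 3 or 4 mice per group. *Hmox1* had a log2 fold change between RGLS4326 and PBS of -0.63, -0.55 and -0.58 in sets 1, 2 and 3, and *Keap1* one of -0.23, -0.32 and -0.25. Both genes were lower after treatment in each set. Within single sets 2 calls were made, both in set 2, for *Keap1* (adjusted p 0.0158) and *Txnrd1* (-0.21, adjusted p 0.0468). *Txnrd1* was at -0.14 in set 1 and 0.02 in set 3. *Nfe2l2* was at -0.18, -0.15 and -0.10. *Nqo1* was unlike them, at 0.58 in set 1 and at -0.14 and -0.39 in sets 2 and 3, none of them called. Its PBS means were 28.4, 38.4 and 51.1 CPM in the 3 sets, against 42.3, 34.5 and 39.0 CPM in treated kidneys. *Gclc* was at 0.69, 0.06 and 0.14. In set 1 alone 0.343% of all genes were called and in set 2 alone 25.5%. In set 3 alone edgeR called 0 genes, and 2826 of 15676 had an unadjusted p under 0.05. The percentage of reads outside genes in RGLS4326 and PBS kidneys was 4.94 to 8.38% and 5.18 to 7.24% in set 1. In set 2 it was 11.3 to 12.0% and 5.49 to 9.0%, without overlap, and in set 3 6.14 to 11.7% and 5.67 to 6.65%. The part of this share in the calls of set 2 was not tested.

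**Figure D3:**
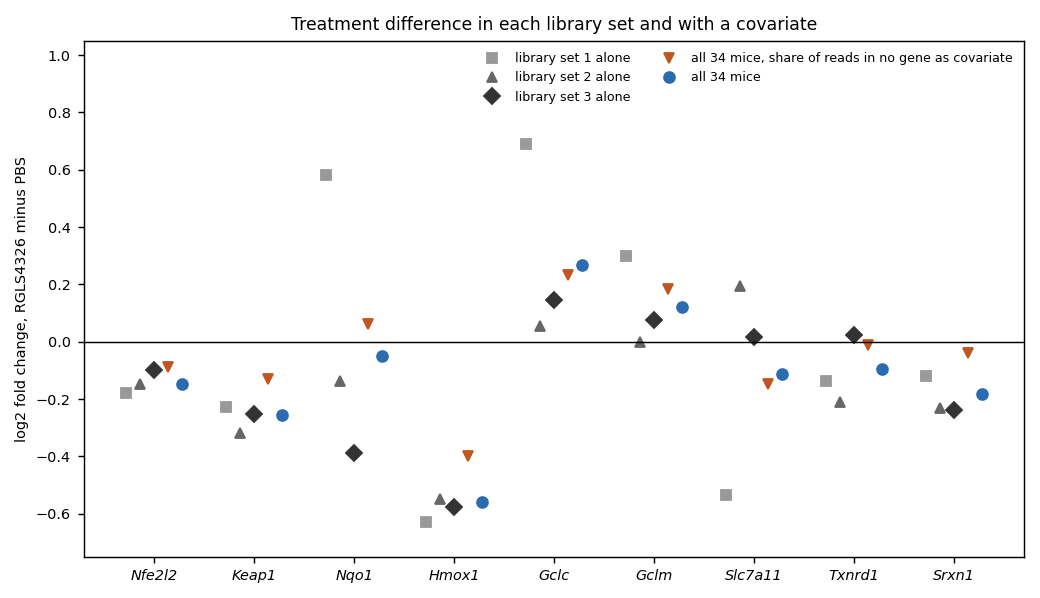
Log2 fold change between RGLS4326 and PBS (vertical axis) of the 9 tested genes in each library set alone, in all 34 mice, and in all 34 mice after adjusting for the percentage of reads outside genes. *Hmox1* and *Keap1* are below 0 in each fit, and *Nqo1* runs from -0.39 to 0.58.

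RGLS4326 kidneys were also set against UNT kidneys, with the same UNT mice as in the disease comparison. *Nqo1*, *Gclc* and *Gclm* were lower and *Nfe2l2*, *Keap1*, *Hmox1* and *Slc7a11* higher in the treated kidneys, and *Srxn1* and *Txnrd1* did not pass. *Gpx2*, in the fit without the filter, was at 1.42 (adjusted p 0.0506). That makes 7 calls among 9 tested genes, where 77.7% of all tested genes were called, 40.8% higher and 36.9% lower. Every treated mouse was below every UNT mouse for *Nqo1* (log2 fold change -1.01, SE 0.15, adjusted p 3.00e-07) and *Gclm* (-0.94, SE 0.10, adjusted p 2.43e-10), where 36.7% of all tested genes had groups that did not overlap. *Gclc* stood at -0.82 (adjusted p 4.34e-05), *Slc7a11* at 1.76 (adjusted p 4.71e-08), *Hmox1* at 0.71 (adjusted p 1.92e-04) and *Nfe2l2* at 0.54 (adjusted p 1.17e-10). After adjusting for reads without a unique alignment *Nfe2l2* fell short of the threshold at 0.31 (adjusted p 0.0621), as did *Hmox1* at 0.73 (adjusted p 0.145). *Hmox1* was not called in set 1 alone either (0.48, adjusted p 0.0918), nor was *Gclc* in set 2 alone (-0.62, adjusted p 0.0745). *Txnrd1*, at -0.03 (adjusted p 0.580), was called lower after adjusting for reads outside genes (-0.12, adjusted p 0.0394). *Keap1* was at 0.17 (adjusted p 0.0197), a call kept by 3 of 12 alternative fits and by all 34 that left out a mouse.

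Other genes of the pathway were read from a list of 34, taken by their textbook roles with earlier results of these data known. In PBS against UNT 26 of 34 were called, 10 higher and 16 lower (background 82.1%, 43.1% higher and 39.0% lower). The median log2 fold change of the list was -0.11. Among 8 partners and regulators, 3 rose and 2 fell. *Maff*, a small Maf protein that pairs with Nrf2, rose 7.92-fold (log2 fold change 2.99, adjusted p 6.51e-23), and its paralogue *Mafg* fell (-0.89, adjusted p 1.17e-09). The *Mafg* call was lost after adjusting for reads without a unique alignment (-0.31, adjusted p 0.274). Exons of *Mafg* overlap those of Sirt7, which makes its count uncertain.

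The further glutathione genes were lower in 4 of 5 cases, where 39.0% of all tested genes were called lower. *Ggt1*, the brush border enzyme that breaks down extracellular glutathione, fell by 2.10 on the log2 scale (adjusted p 2.96e-16), and *Gss*, glutathione synthetase, by 1.26 (adjusted p 3.32e-14). Exons of Acss2, Gssos1 and Gssos2 on the opposite strand overlap those of *Gss*, and the antisense gene A330041J22Rik those of *Me1*, so both counts are uncertain. All 3 thioredoxin and peroxiredoxin genes fell, among them *Prdx1* (-0.56, adjusted p 1.80e-08) and thioredoxin itself, *Txn1* (-0.41, adjusted p 3.24e-06), whose call was lost in set 3 alone (-0.19, adjusted p 0.288) and after adjusting for reads without a unique alignment. The NADPH suppliers split. *Me1*, malic enzyme, fell (-1.93, adjusted p 1.49e-17), while *G6pdx*, the entry enzyme of the pentose phosphate pathway, rose (0.78, adjusted p 2.62e-11), as did *Pgd*. In haem and iron handling 1 gene rose and 2 fell, with *Blvra* at -0.72 (adjusted p 3.44e-10) and *Blvrb* at 0.48 (adjusted p 1.73e-05), both biliverdin reductases. The *Blvrb* call was lost after adjusting for reads outside genes (0.09, adjusted p 0.494) or without a unique alignment. Of 9 genes of conjugation, carbonyl reduction and export 4 rose and 4 fell, the largest changes being those of *Cbr1* (-1.67, adjusted p 2.26e-10) and *Osgin1* (-1.33, adjusted p 6.87e-12). Over 12 alternative fits *Cbr1* ran from -2.79 to -1.12 and *Osgin1* from -1.83 to -1.08, and both were called in each.

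**Figure D4:**
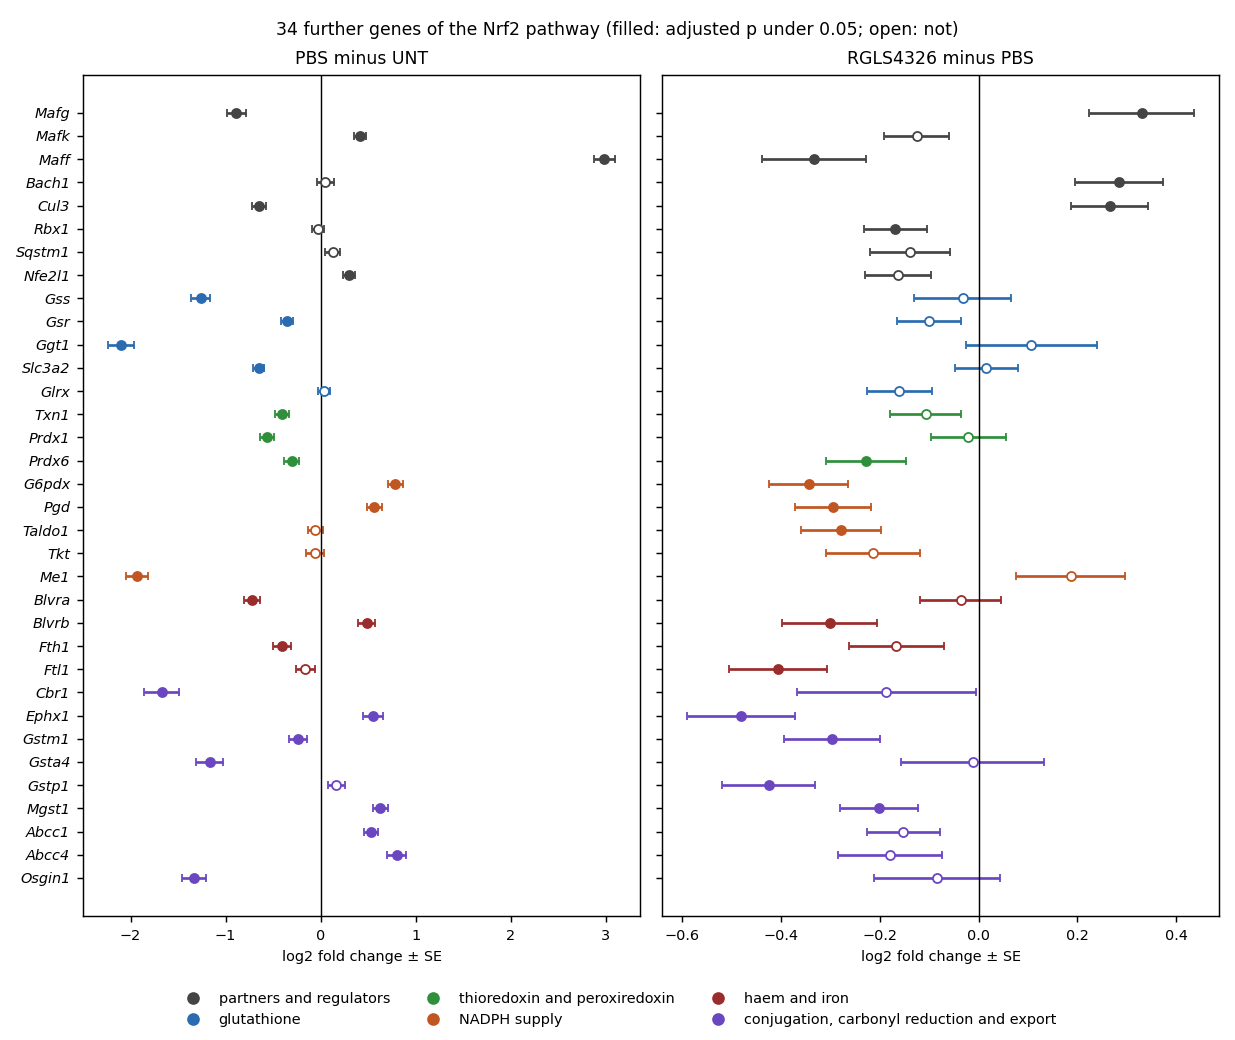
Log2 fold change ± SE of 34 further genes of the pathway, coloured by role, for PBS minus UNT (left) and RGLS4326 minus PBS (right), with filled points for an adjusted p under 0.05. The horizontal scales differ, with the left panel reaching 2.99 for *Maff* and the right panel staying between -0.48 (*Ephx1*) and 0.33 (*Mafg*).

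After treatment 15 of the 34 genes were called, 12 lower and 3 higher (background 33.8%, 18.5% lower and 15.3% higher). Their median log2 fold change over the list was -0.16. The 3 that rose were all regulators. They were *Mafg* (0.33, adjusted p 0.0183), *Bach1* (0.28, adjusted p 0.0161), a repressor that competes with Nrf2, and *Cul3* (0.27, adjusted p 0.0123), the scaffold of the ligase that Keap1 recruits. *Maff* (-0.33, adjusted p 0.0169) and *Rbx1* (-0.17, adjusted p 0.0399), the ring protein of that ligase, fell. None of the 5 glutathione genes passed, and *Prdx6* (-0.23, adjusted p 0.0306) was the thioredoxin and peroxiredoxin gene that did.

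Of 5 genes of NADPH supply 3 were lower, namely *G6pdx* at -0.34 (adjusted p 0.00381), *Pgd* at -0.29 (adjusted p 0.00652) and *Taldo1* at -0.28 (adjusted p 0.0110), all of the pentose phosphate pathway, while *Tkt* of the same pathway was at -0.21 (adjusted p 0.0782) and did not pass. Nor did *Me1*, at 0.19 (adjusted p 0.184). Of 4 genes of haem and iron handling 2 fell, the light ferritin chain *Ftl1* (-0.41, adjusted p 0.00501) and *Blvrb* (-0.30, adjusted p 0.0180), while *Fth1* at -0.17 (adjusted p 0.173) and *Blvra* at -0.04 (adjusted p 0.742) did not pass. Of the 9 genes of conjugation, carbonyl reduction and export 4 fell, namely the epoxide hydrolase *Ephx1* (-0.48, adjusted p 0.00334), *Gstp1* (-0.42, adjusted p 0.00309), *Gstm1* (-0.30, adjusted p 0.0200) and *Mgst1* (-0.20, adjusted p 0.0462). The other 5, *Gsta4*, *Osgin1*, *Abcc1*, *Abcc4* and *Cbr1*, lay between -0.19 and -0.01 and did not pass. Of the 3 relatives of *Gpx2*, which are outside this list, *Gpx4* fell (-0.28, adjusted p 0.0263), while *Gpx1* at -0.14 (adjusted p 0.286) and *Gpx3* at 0.21 (adjusted p 0.145) did not pass. Of the 15 calls in the list, that of *Mgst1* was lost in 15, that of *Rbx1* in 11 and that of *Prdx6* in 6 of the 34 fits that left out 1 mouse (adjusted p up to 0.107, 0.122 and 0.0722), and the other 12 held in all of them. After adjusting for the percentage of reads outside genes, edgeR called 0 of the 34 genes in this comparison, 9 of them with an unadjusted p under 0.05. Overlapping exons make the counts of *G6pdx* (with Ikbkg), *Ftl1* (with Gm22133 and Gm10252) and *Ephx1* (with Gm36961) uncertain.

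Against UNT, treated kidneys had 29 of 34 genes called, 8 higher and 21 lower (background 77.7%, 40.8% higher and 36.9% lower). The median log2 fold change of the list was -0.36. Of the glutathione genes 4 of 5 were lower, and of the thioredoxin and peroxiredoxin genes 3 of 3, with *Prdx6* at -0.53 against UNT in treated kidneys and at -0.30 in PBS kidneys.

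How *Nqo1* varied with the other genes from mouse to mouse was examined within each group, on log2(CPM + 1). Of 27 pairs (9 genes in 3 groups) 6 had an unadjusted permutation p of Pearson's r under 0.05, and 0 passed after adjustment over the 27 pairs (smallest adjusted p 0.197). The largest were *Slc7a11* in PBS (r = -0.745, permutation p 0.00857, rho = -0.700), *Srxn1* (r = 0.691, permutation p 0.0219, rho = 0.736) and *Gclc* (r = 0.684, permutation p 0.0209, rho = 0.591) in RGLS4326. *Gclc* (r = 0.620, permutation p 0.0430, rho = 0.627) and *Gclm* (r = 0.619, permutation p 0.0440, rho = 0.573) in PBS, and *Gpx2* in UNT (r = -0.660, permutation p 0.0354, rho = -0.325), were the others. Without the 2 mice farthest from the median of *Nqo1* these became -0.595, 0.643, 0.598, 0.381, 0.335 and 0.298, so that the last changed sign. The 1 pair with an unadjusted permutation p under 0.05 was then *Gclm* in RGLS4326 (r = 0.685, permutation p 0.0453, adjusted p 0.543).

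Over all 34 mice, with each group's mean subtracted, the tested genes most like *Nqo1* were *Slc38a3* (r = 0.819), a glutamine carrier of the proximal tubule, *Acox2* (0.788), *Gm10872* (0.780), *Hoga1* (0.776) and *Tcea3* (0.772). The points share their libraries and depth, and these values are given as a description. Among 15643 genes ranked in this way *Gclm* came 542nd (r = 0.491) and *Gclc* 2278th (r = 0.288), whereas *Nfe2l2* (r = -0.146), *Hmox1* (r = -0.114) and *Slc7a11* (r = -0.314) were on the other side of 0. *Txnrd1* was at r = -0.084, *Keap1* at 0.015 and *Srxn1* at 0.048.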

How the data were processed

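Kidney RNA of 34 mice was analysed. The authors made stranded poly(A) libraries, sequenced paired ends on an Illumina NextSeq, trimmed them with TrimGalore, aligned them with STAR to GRCm38 (mm10) and counted unique reads per gene with HTSeq; the submitters' processing notes name FastQC 0.11.2, SAMtools 1.1, HTSeq 0.6.1 and Picard 1.119. The deposited values are raw counts per gene symbol, 1 table per mouse; the annotation and strand setting are not given in the sources used here. The closing totals of each table were kept out of library sizes. With 17603122 to 54981992 reads in genes, variation between mice rather than counting limits all members but *Slc7a11* and *Gpx2*. No tables were identical (0 pairs).

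Groups follow the labels. All 34 mice entered 1 edgeR 4.0.16 quasi-likelihood fit (R 4.3.3, TMM scaling, filterByExpr, 15644 genes), with two-sided tests, Benjamini-Hochberg adjustment and calls under 0.05; SE is the log2 fold change over the root of F. Tested on simulated data for RGLS4326 against PBS (15560 genes), it recovered 95 of 99 changes of 1 and 68 of 100 of 0.5 log2 units, with 9 false calls. Correlations used 100000 permutations (two-sided, scipy 1.17.1). Alternatives used DESeq2 1.42.0 (size factors, Wald test), no filter, a replicate block, library set, read-share and Ddx3y covariates, library sets alone, the compared groups alone and leave-one-out fits.

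The genes, the wider list and the markers were chosen with earlier results of these data known. Every gene of the set is named in each comparison; of the wider list, those called after treatment and the 2 largest called changes per role in disease. Positions, exon lengths and 3′UTRs come from GENCODE vM21 on GRCm38, and promoters and microRNAs from RefSeq (GRCm38.p6). Adgre1 was matched by its older symbol Emr1. Control-oligonucleotide mice and earlier days were not analysed here.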

Additional observations from a re-analysis of the deposited data

How the results depend on the processing

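Of the 9 genes tested, 8 were called between PBS and UNT whichever mouse was left out (8 to 8), 7 in each library set alone and 6 after adjusting for reads outside genes or without a unique alignment (70.2% and 46.9% of all genes called). Between RGLS4326 and UNT 7 were called (7 to 7 with 1 mouse left out), and 4 after adjusting for reads without a unique alignment (46.8% of all genes). The 2 calls between RGLS4326 and PBS became 4 with the DESeq2 Wald test, with library set as a covariate and after adjusting for reads without a unique alignment, where 36.4%, 37.5% and 38.7% of all genes were called. They became 0 in library set 1 alone, in set 3 alone and after adjusting for reads outside genes, where edgeR left 4, 1 and 2 genes with an unadjusted p under 0.05. They were also 0 in mice with Ddx3y at no more than 1 CPM, a split chosen after seeing the data (0 at an unadjusted p under 0.05). Leaving out 1 mouse gave 2 to 4, with 4 without PBS replicate 5, 6 or 7 or RGLS4326 replicate 8, through *Nfe2l2* and *Srxn1*. In the wider list the 26 calls between PBS and UNT (26 to 27 with 1 mouse left out) fell to 17 after adjusting for reads without a unique alignment, with 46.9% of all genes called there. The 15 between RGLS4326 and PBS (12 to 18) fell to 0 in sets 1 and 3 alone and after adjusting for reads outside genes, with 8, 12 and 9 at an unadjusted p under 0.05. The 29 between RGLS4326 and UNT were 29 to 31 with 1 mouse left out and 21 to 31 under the other alternatives.

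Reversed log2 fold changes were these. Between RGLS4326 and UNT, *Keap1* turned to -0.0542 in set 2 and -0.20 after adjusting for reads without a unique alignment, and *Srxn1* to -0.0312, to -0.0654 with that adjustment and to -0.0866 with reads outside genes. Between PBS and UNT, adjusting for reads outside genes turned *Srxn1* to -0.049 and *Txnrd1* to -0.11, and *Txnrd1* was -0.0944 in set 3 and -0.17 after adjusting for reads without a unique alignment. Between RGLS4326 and PBS, *Nqo1* was 0.58 in set 1, 0.0618 after adjusting for reads outside genes, 0.22 in mice with Ddx3y and -0.12 to 0.0594 with 1 mouse left out. *Gclm* was -0.0022 in set 2 and -0.0044 in mice without Ddx3y, and *Slc7a11* 0.19 in set 2, 0.016 in set 3 and 0.0084 in mice with Ddx3y. *Txnrd1* was 0.0232 in set 3, and in set 1 *Prdx6* was 0.0304 and *Gstm1* 0.0677. The correlation of *Nqo1* with *Gpx2* in UNT was 0.298 without its 2 most distant mice. The cause was not tested.

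Replicate numbers were not used as pairs in the main fit. The check below cannot exclude pairing, because mice of different numbers were not compared. Deviations from the group means correlated above 0.1 in 2 of 11 same-numbered pairs of PBS and UNT, 5 of 11 of RGLS4326 and PBS and 3 of 11 of RGLS4326 and UNT. With the replicate number as a block, 8, 2 and 7 of the 9 genes were called in PBS against UNT, RGLS4326 against PBS and RGLS4326 against UNT, and 26, 16 and 30 of the wider list, beside 81.7%, 32.6% and 77.7% of all genes.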

Other observations

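The low and the high cluster of *Gclc* among UNT mice went with *Ddx3y*, a gene of the Y chromosome that was above 1 CPM in 17 of the 34 mice. This was noticed in the data and then tested on the same mice, and the labels give no sex. The 6 UNT mice with *Ddx3y* had *Gclc* levels of 220, 227, 221, 201, 295 and 253 CPM, and the 6 without it 426, 570, 440, 219, 426 and 479 CPM, so that 1 mouse without *Ddx3y* lay in the low cluster. The log2 difference, with minus without *Ddx3y*, was -0.85 (SE 0.19, adjusted p 0.0276, edgeR quasi-likelihood test), where 69 genes (0.441%) were called. Other genes of the set were not called there.

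Mice with and without *Ddx3y* were separated within each group, in 1 fit of all 34 mice. The disease change of *Gclc* was -0.64 in mice with *Ddx3y* and -1.41 in mice without it. For *Nqo1* the order was the other way, at -1.38 and -0.57. Neither difference passed after adjustment over all genes (difference 0.77, SE 0.27, adjusted p 0.727, and -0.81, SE 0.26, adjusted p 0.603). Both in mice with and in mice without *Ddx3y* 8 genes of the set were called, where 75.1% and 73.8% of all genes were. After treatment *Hmox1* (-0.79, adjusted p 0.0140), *Keap1* (-0.34, adjusted p 0.00884) and *Srxn1* (-0.29, adjusted p 0.0409) were called in mice with *Ddx3y*, where 33.1% of all genes were, and edgeR called 0 of 15644 genes in mice without it (1628 with an unadjusted p under 0.05). No gene's treatment change was called as different between the mice with and without *Ddx3y* (0 genes, 938 with an unadjusted p under 0.05).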
